A study of Rattus norvegicus with 88 samples.

Results

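Bdnf and Ntrk2 encode a neurotrophin and the receptor that binds it, and their transcripts were measured in the orbitofrontal cortex (OFC) of 80 HS rats. The pair was chosen by name, as the rows ENSRNOG00000047466 (Bdnf) and ENSRNOG00000018839 (Ntrk2), which are 2 of the 17123 genes in the table. How each of them followed Fos (ENSRNOG00000008015) and Egr1 (ENSRNOG00000019422), a pair of activity-induced transcription factor genes, was asked as well. HS rats (Heterogeneous Stock) are an outbred population derived from inbred founder strains. All of the rats were group housed and had received no behavioral or drug treatment, and their ages were not given in the labels. The labels sorted the rats by sex and by a rat batch, whose meaning they did not explain. Batch 2 held 15 rats (11 males and 4 females), batch 3 held 22 (10 and 12), batch 4 held 26 (12 and 14), batch 5 held 1 female, and batch 6 held 16 (8 and 8). Each rat gave 1 library of polyA RNA from tissue dissected from both hemispheres, and the tests used the 79 libraries of batches 2, 3, 4 and 6.

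BDNF (brain-derived neurotrophic factor) is a secreted protein that supports the survival of neurons and the strengthening of synapses. It acts through TrkB, the receptor tyrosine kinase encoded by Ntrk2, which also exists as a truncated form without the kinase that is abundant in astrocytes, and a value per gene sums these forms. In cortex, Bdnf is made mainly by excitatory neurons, and its transcription rises with calcium entry and neuronal firing. Fos and Egr1 are immediate early genes, which are transcribed within minutes of neuronal activation without new protein synthesis and are widely used to mark recently active neurons.

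The rat Bdnf gene has several alternative starts, each joined to the same coding exon, so a value per gene sums transcripts from all of them. RefSeq listed 6 Bdnf starts on the plus strand of chromosome 3 of the GRCr8 assembly, which is a later build than the Rnor_6.0 named in the submitters' processing notes. The 250 bases before each start were searched on both strands for the cyclic AMP response element (TGACGTCA) and for the shorter core of that element (CGTCA). They were searched too for AP-1, the element bound by Fos with Jun proteins (TGAGTCA), for a pair of forms of the Egr element (GCGTGGGCG and GCGGGGGCG) and for the CArG box. The core CGTCA was in 1 of the 6 windows, before start 4 (counted along the chromosome), and it began 35 bases before that start. Of all 33469 promoter windows in the RefSeq table, 18.2% held CGTCA. The full TGACGTCA was in 1.59% of all windows, TGAGTCA in 4.05%, GCGTGGGCG in 0.478%, GCGGGGGCG in 2.45% and the CArG box in 1.50%, and none of these was in a Bdnf window. CGTCA lies inside TGACGTCA, so their counts overlap. The windows of start 4 and start 1 are shown because they contrast a start with the core and a start without it. The window of start 4 covers chr3:116637608-116637857 and that of start 1 chr3:116619383-116619632, and capitals mark the core.

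Bdnf, start 4: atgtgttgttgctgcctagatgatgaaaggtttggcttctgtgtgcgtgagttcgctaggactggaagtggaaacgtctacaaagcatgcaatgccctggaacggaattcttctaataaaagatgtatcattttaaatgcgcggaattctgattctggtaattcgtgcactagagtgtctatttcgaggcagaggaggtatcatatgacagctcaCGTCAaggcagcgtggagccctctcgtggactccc

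Bdnf, start 1: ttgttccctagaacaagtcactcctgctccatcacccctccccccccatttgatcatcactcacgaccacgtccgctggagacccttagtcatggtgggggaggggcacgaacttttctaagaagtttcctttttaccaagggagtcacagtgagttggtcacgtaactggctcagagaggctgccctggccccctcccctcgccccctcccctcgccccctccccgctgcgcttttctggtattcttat

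The deposited value of a gene was log2 of its upper quartile-normalized read count plus 1, called its level below. The libraries held 5.67 to 25.6 M reads (median 18.1 M), recovered from what 1 read was worth in each library. Gene lengths were not given, so levels are compared between rats and never between genes. Other Ensembl identifiers could not be paired with symbols, so the markers of cell types and the other genes of the BDNF pathway were not counted, and the dissection label was not checked against markers. In dissected tissue, fewer cells that transcribe a gene and less RNA per cell cannot be told apart.

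Bdnf varied more among rats than nearly all genes of like level, and Ntrk2 did not. Over the 80 rats, Bdnf ranged from 343 to 1803 normalized reads (median 1123.5), a 5.26-fold range. Ntrk2 ranged from 8009 to 14044 normalized reads (median 10664.5), a 1.75-fold range. After sex and batch means were removed, the SD of Bdnf among rats was 0.50 on the log2 scale. It lay at the 99.5th percentile of the 2248 genes whose mean level was within 0.5 of that of Bdnf, whose median SD was 0.14. The SD of Ntrk2 was 0.15, at the 74.9th percentile of 223 genes of like level (median 0.12). Counting error alone would give an SD of 0.05 for Bdnf, from 282 to 2144 reads per library, and of 0.015 for Ntrk2, from 2774 to 16457 reads. Fos and Egr1 had SDs of 0.91 and 0.49.

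Bdnf was lowest in batch 6. In batch 2 the rats held 865 to 1803 normalized Bdnf reads (median 1119.0), in batch 3 465 to 1614 (median 1077.0), and in batch 4 498 to 1647 (median 1193.0). In batch 6 they held 343 to 1516 (median 611.0). The ranges of all 4 batches overlapped, and the highest rats of batch 6 stood among the highest of the other batches. The mean level was 10.21 ± 0.30 (SD, n = 15) in batch 2, 10.05 ± 0.44 (n = 22) in batch 3, 10.11 ± 0.44 (n = 26) in batch 4 and 9.49 ± 0.78 (n = 16) in batch 6.

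**Figure D1:**
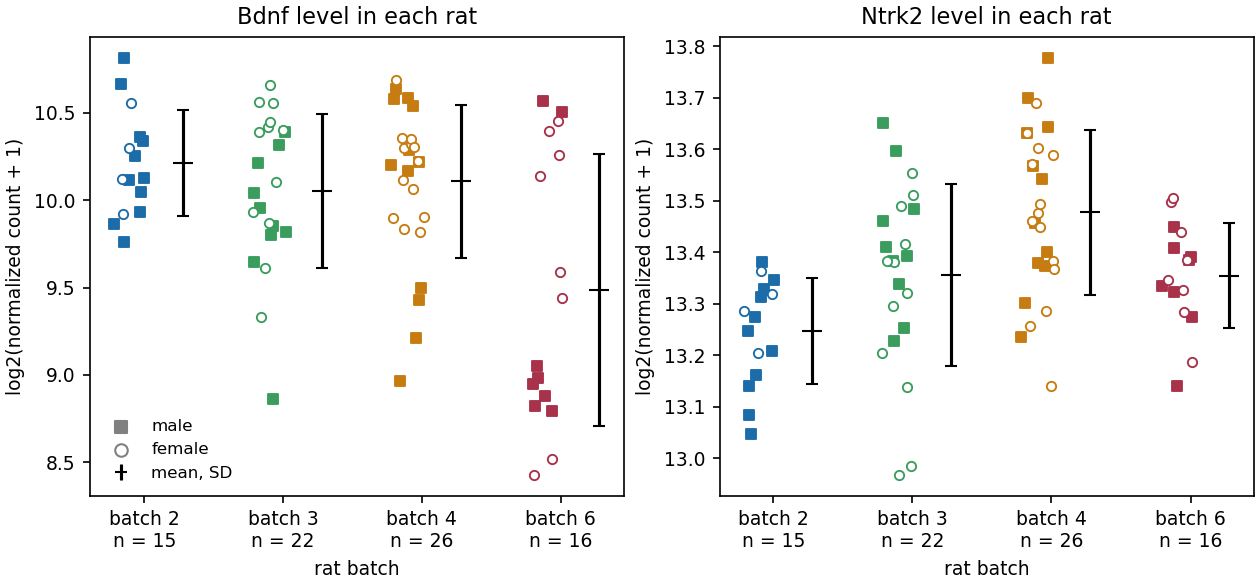
Level of Bdnf (left) and Ntrk2 (right), as log2(normalized count + 1), in each of the 79 rats of batches 2, 3, 4 and 6. Filled squares are males, open circles females, and the bars give the mean and SD of a batch. Bdnf in batch 6 spans 8.43 to 10.57 with no rat between 9.59 and 10.14, while Ntrk2 in the same batch spans 13.14 to 13.51.

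The batch means of Bdnf differed past the threshold (limma F test with sex as a covariate, adjusted p = 3.03e-04, range of batch means 0.78). Batch differences were common, as 64.7% of all genes passed the same test. Bdnf in batch 6 fell by 0.78 ± 0.18 (SE) on the log2 scale against batch 2 (limma adjusted p = 1.17e-04, where 53.8% of genes passed). It fell by 0.56 ± 0.16 against batch 3 (adjusted p = 0.00221, 50.9% of genes passed) and by 0.61 ± 0.15 against batch 4 (adjusted p = 0.0040, 13.6% of genes passed). None of batches 2, 3 and 4 differed from each other in Bdnf past the threshold, with differences of -0.22 to 0.06 and adjusted p-values of 0.422 to 0.781. Without batch 6 the batch test of Bdnf gave an adjusted p of 0.378, in females alone 0.0904, and with 20 expression components as covariates 0.877. Of 17123 genes, 9022 passed without batch 6, 6156 in females alone and 1 with the 20 components.

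The rats of batch 6 also spread more widely in Bdnf. From lowest to highest, their normalized Bdnf reads were 343, 365, 443, 452, 469, 493, 504, 529, 693 and 769, and then 1128, 1226, 1349, 1402, 1452 and 1516. Of the 10 lower rats 6 were males and 4 females, and of the 6 higher rats 2 were males and 4 females. With sex and batch means removed, the mean absolute deviation from the batch median was 0.63 in batch 6. It was 0.24 in batch 2, 0.33 in batch 3 and 0.33 in batch 4. This difference in spread passed a permutation test over the 79 rats that was chosen after the values were seen (adjusted p = 0.0136 over the 4 named genes). Ntrk2 in batch 6 deviated by 0.08, against 0.09 to 0.13 in the other batches (adjusted p = 0.138). Egr1 did as Bdnf did, with 0.56 in batch 6 against 0.21 to 0.38 in the other batches (adjusted permutation p = 0.0136). Fos also deviated most in batch 6, by 0.96 against 0.42 to 0.65, without passing (adjusted permutation p = 0.0948). The level of Egr1 was also lower in batch 6, by -0.76, -0.42 and -0.54 against batches 2, 3 and 4 (limma adjusted p = 1.19e-04, 0.0189 and 0.00936). That of Fos differed by -0.45, -0.18 and -0.56, and none of these passed (limma adjusted p = 0.240, 0.645 and 0.174).

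Ntrk2 was highest in batch 4, by small amounts. Its normalized reads ran from 8462 to 10662 in batch 2 (median 9905.0), 8009 to 12869 in batch 3 (median 10684.0), 9031 to 14044 in batch 4 (median 11332.5) and 9022 to 11627 in batch 6 (median 10554.0). The ranges of all 4 batches overlapped. The mean levels were 13.25 ± 0.10, 13.36 ± 0.18, 13.48 ± 0.16 and 13.35 ± 0.10 (SD, n = 15, 22, 26 and 16). The batch test passed (limma F test, adjusted p = 1.21e-04, range of batch means 0.24). It did not pass without batch 4 (adjusted p = 0.0583, range 0.12), in females alone (0.139, range 0.16) or with 20 expression components as covariates (0.806, range 0.11). Of 17123 genes, 9839 passed without batch 4, 6156 in females alone and 1 with the 20 components. Ntrk2 was higher in batch 4 than in batch 2 by 0.24 ± 0.05 (adjusted p = 1.78e-05, 48.6% of genes passed) and than in batch 3 by 0.12 ± 0.04 (adjusted p = 0.0148, 42.9% of genes passed). The order of the other batches was not resolved. Batch 3 exceeded batch 2 by 0.12 (adjusted p = 0.116, 9.79% of genes passed), and batch 6 differed from batches 2, 3 and 4 by 0.12, -0.0032 and -0.12 (adjusted p = 0.0571, 0.963 and 0.0581).

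Position in the table moved with batch. The columns formed 3 stretches of ascending titles, and 14 of the 15 rats of batch 2 stood in the first stretch while all rats of batches 4 and 6 stood in the third. With the stretch as a further term, which was added after seeing the data, the batch test of Bdnf gave an adjusted p of 0.0115 and that of Ntrk2 0.0534. With this term 3178 of 17123 genes passed, against 11078 without it. Since batches 4 and 6 stood wholly in the third stretch, a fit on them alone compared the same rats as their contrast above. In that fit they differed by 0.61 in Bdnf (limma adjusted p = 0.0173) and by 0.12 in Ntrk2 (adjusted p = 0.0563). There 2352 of 17123 genes passed. The part of the stretch in the batch differences was not tested beyond these values.

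No sex difference passed the test for either gene. Bdnf held 443 to 1803 normalized reads in the 41 males (median 1057.0) and 343 to 1647 in the 39 females (median 1226.0). Ntrk2 held 8462 to 14044 in males (median 10651.0) and 8009 to 13205 in females (median 10680.0). With batch as a covariate, males minus females was -0.21 ± 0.11 (SE, 95% interval -0.43 to 0.01) for Bdnf and 0.03 ± 0.03 (-0.03 to 0.10) for Ntrk2, with adjusted p-values of 0.723 and 0.916 in limma. In this test 0.117% of genes passed. The sex difference did not vary between batches past the threshold for either gene (limma adjusted p = 1.000 for both). In that test 0% of genes passed, although 451 of 17123 had an unadjusted p under 0.05.

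Bdnf followed Egr1 across rats, weakly, and its relation to Fos did not pass. With batch means removed, Bdnf and Egr1 correlated with Pearson's r = 0.415 (permutation p = 0.00114, adjusted 0.0057 over 5 relations) and Spearman's rho = 0.380 (adjusted permutation p = 0.00645). Without the 2 rats farthest from the median of Egr1, r was 0.378. Bdnf and Fos gave r = 0.131 (adjusted permutation p = 0.369) and rho = 0.109, and without the 2 rats farthest from the median of Fos r was 0.119. In the limma fit with sex and batch, the slope of Bdnf was 0.38 ± 0.11 (SE) per unit of Egr1 (adjusted p = 0.0295) and 0.05 ± 0.06 per unit of Fos (adjusted p = 0.783). Of all genes, 2.64% passed the test on Egr1 and 1.48% that on Fos.

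The relation of Bdnf to Egr1 rested on batch 6. Within batch 6, r was 0.722 (permutation p = 9.7e-04, adjusted 0.0194 over 20 relations, n = 16) and rho 0.809. Within batches 2, 3 and 4 r was -0.228, 0.331 and 0.062 (adjusted permutation p = 0.640, 0.377 and 0.803). In the same batches rho was -0.232, 0.438 and 0.159 (adjusted permutation p = 0.623, 0.141 and 0.623). Over these batches together, a set chosen after seeing the data, r was 0.155 (adjusted permutation p = 0.307). In a limma fit with a slope for each batch, the slope of Bdnf on Egr1 was 0.71 ± 0.15 in batch 6 (adjusted p = 0.00123, 1.56% of genes passed) and -0.22, 0.20 and -7.32e-04 in batches 2, 3 and 4. Fitted on the 16 rats of batch 6 alone, that slope was 0.73 and did not pass (adjusted p = 0.0864). The difference between the 4 slopes did not pass the test over all genes (limma F test, unadjusted p = 0.0137, adjusted p = 0.245, 1.09% of genes passed). The slopes on Fos were -0.22, -0.05, -0.37 and 0.27 in batches 2, 3, 4 and 6 (unadjusted p = 0.00199, adjusted p = 0.107, 0.882% of genes passed).

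Ntrk2 followed neither gene past the threshold. Its r was -0.232 with Fos (permutation p = 0.0323, adjusted 0.0809) and -0.163 with Egr1 (adjusted permutation p = 0.174), and rho was -0.229 and -0.140. Without the 2 rats farthest from the median, r was -0.267 with Fos (permutation p = 0.0217, adjusted 0.0435 over 2 relations, where the values above are adjusted over 5) and -0.192 with Egr1. The limma slope of Ntrk2 was -0.03 ± 0.02 on Fos (adjusted p = 0.427) and -0.04 ± 0.03 on Egr1 (adjusted p = 0.692). Within batches, the correlation of Ntrk2 with Fos was -0.582 in batch 3 (adjusted permutation p = 0.0482) and -0.139, -0.174 and 0.172 in batches 2, 4 and 6. Without batch 6, a choice made after seeing the data, it was -0.382 (adjusted permutation p = 0.0182). With batch means removed, the slopes on Egr1 were 0.41 for Bdnf and -0.05 for Ntrk2, and their difference of 0.46 passed a permutation test (adjusted p = 3.8e-04 over 2 tests). On Fos the slopes were 0.07 and -0.04 (difference 0.11, adjusted permutation p = 0.142). Both differences pool the 4 batches, and neither was tested within batches or without batch 6. Without batch 6 the limma slopes on Egr1 were 0.0849 for Bdnf (adjusted p = 0.814) and -0.11 for Ntrk2 (adjusted p = 0.260).

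**Figure D2:**
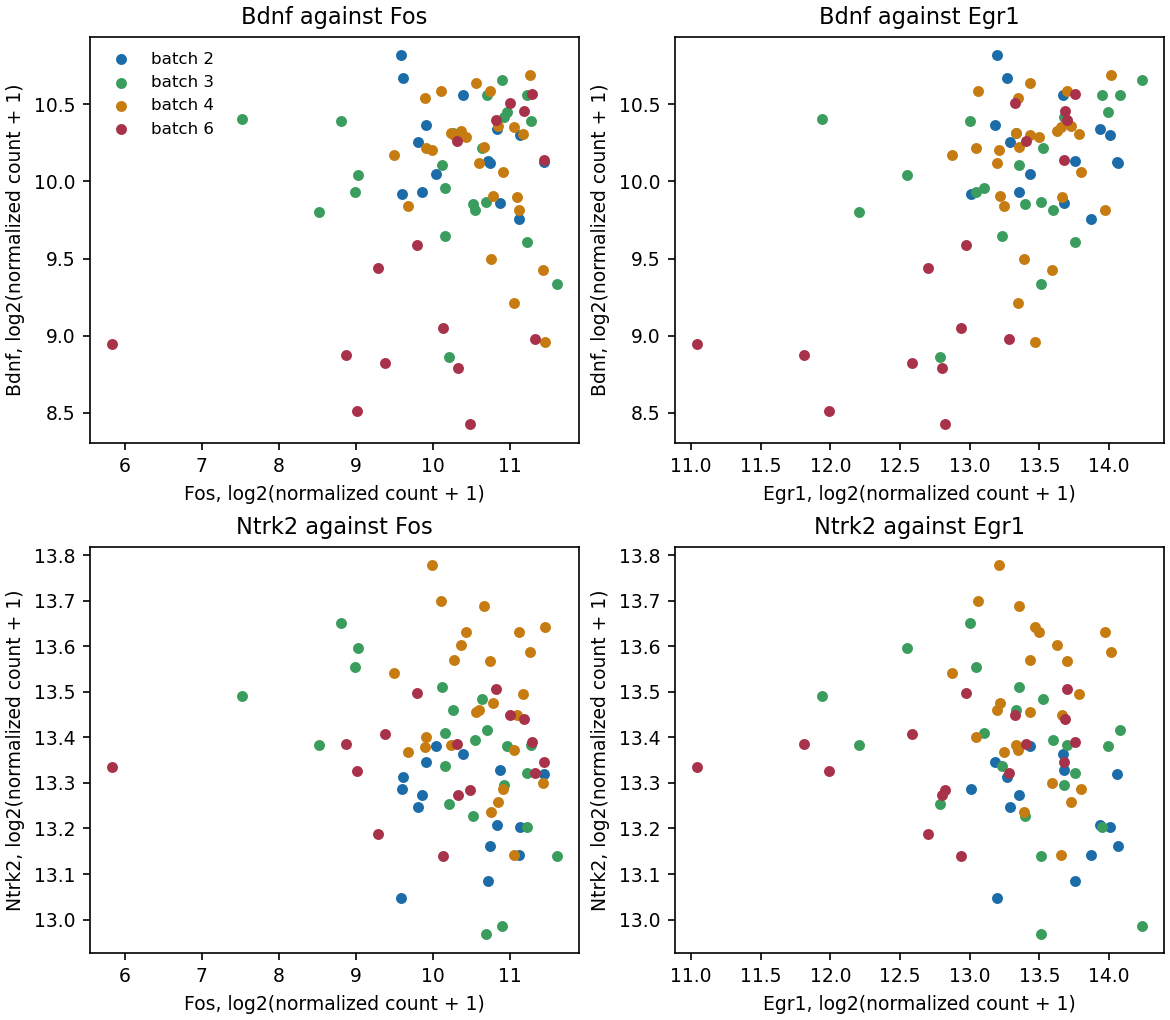
Level of Bdnf (top) and Ntrk2 (bottom) against the level of Fos (left) and Egr1 (right), all as log2(normalized count + 1), with 1 point per rat and colours for the 4 batches. In the panel of Bdnf against Egr1 the batch 6 rats rise from lower left to upper right, while the other batches form a broad cloud, and the Ntrk2 panels show little slope.

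The receptor and its ligand were weakly related. Bdnf and Ntrk2 had r = 0.206 with batch means removed (permutation p = 0.0555, adjusted 0.0925) and rho = 0.251 (adjusted permutation p = 0.0585), and without the 2 rats farthest from the median of Ntrk2 r was 0.205. Within batches r was -0.116, 0.170, 0.169 and 0.526 in batches 2, 3, 4 and 6, and none of these passed (adjusted permutation p = 0.144 to 0.753).

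When Fos and Egr1 were fitted together, Bdnf rose with Egr1 and fell with Fos. Fos and Egr1 themselves moved together (r = 0.889 with batch means removed, and 0.726 to 0.938 within batches), so each slope describes rats that differ in 1 of these genes at a like level of the other. At a given Fos, Bdnf rose by 1.41 ± 0.19 (SE, 95% interval 1.02 to 1.79) on the log2 scale per unit of Egr1 (limma adjusted p = 1.19e-07). At a given Egr1, it fell by 0.62 ± 0.10 (interval -0.82 to -0.41) per unit of Fos (limma adjusted p = 3.23e-05). Of all 17121 genes tested, 3.97% passed for Egr1 and 2.63% for Fos. The moderated statistic of Bdnf ranked 26 from the most positive on Egr1 and 15 from the most negative on Fos. Both slopes passed in 314 genes. Of these, 201 had, like Bdnf, a positive slope on Egr1 and a negative slope on Fos, and 113 had the reverse. All 314 thus had slopes of opposite sign. Because Fos and Egr1 moved together, errors in their slopes tend to be opposite as well, so opposite signs are not particular to Bdnf. Ntrk2 did not pass for either gene (Egr1 0.07 ± 0.07, adjusted p = 0.684, and Fos -0.07 ± 0.04, adjusted p = 0.366).

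**Figure D3:**
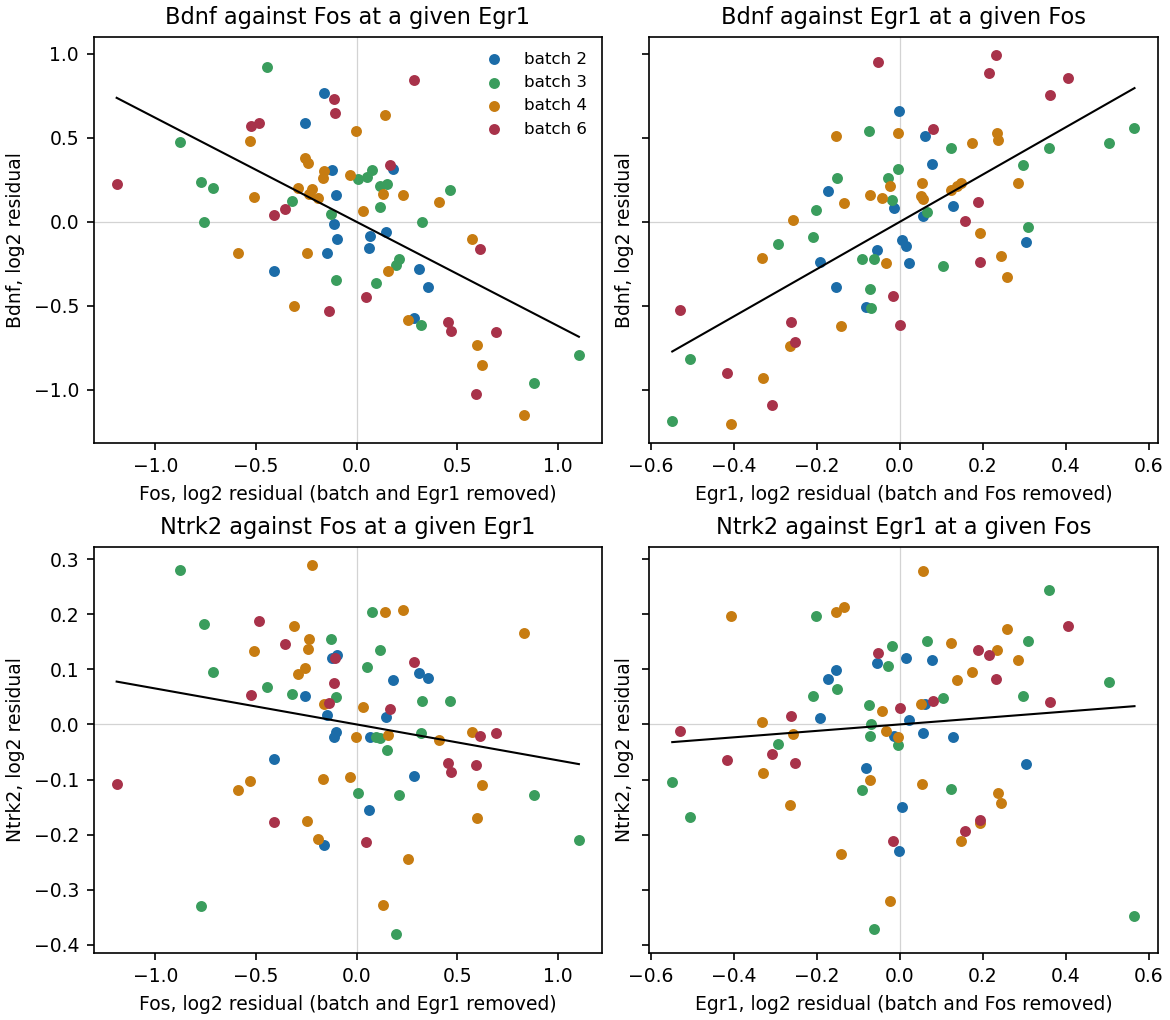
Log2 residuals of Bdnf (top) and Ntrk2 (bottom) against those of Fos after batch and Egr1 were removed (left) and those of Egr1 after batch and Fos were removed (right), with 1 point per rat, colours for batches and the least squares line. Bdnf falls with Fos at a given Egr1 (partial r = -0.571) and rises with Egr1 at a given Fos (0.657), while the Ntrk2 lines are flatter (-0.193 and 0.0969).

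The opposite slopes of Bdnf had the same signs in every batch. Fitted in 1 batch at a time, the slope on Fos at a given Egr1 was -0.74, -0.57, -0.74 and -0.71 in batches 2, 3, 4 and 6, and its 95% interval lay below 0 in each of them. The slope on Egr1 at a given Fos was 1.01, 1.08, 1.07 and 1.98, with an interval above 0 in batches 3, 4 and 6 and of -0.12 to 2.15 in batch 2. Adjusted over all genes, these single-batch fits gave p-values of 0.0558 to 0.567 for Fos and of 0.0279 to 0.710 for Egr1. Partial correlations within batches, given as a description, were -0.496, -0.70, -0.639 and -0.652 with Fos and 0.405, 0.739, 0.550 and 0.793 with Egr1. For Ntrk2 the single-batch slopes were 0.05, -0.14, -0.06 and -0.04 on Fos and -0.17, 0.12, 0.05 and 0.11 on Egr1 in batches 2, 3, 4 and 6, and only that on Fos in batch 3 had an interval without 0 (-0.27 to -0.02, limma adjusted p = 0.528). In males alone the slopes of Bdnf were -0.74 on Fos and 1.62 on Egr1, and in females alone -0.51 and 1.24. Without the 2 rats lowest in Fos, a choice made after seeing the data, they were -0.66 and 1.47 (adjusted p = 3.57e-05 and 2.55e-08). With 20 expression components as covariates they were -0.39 and 0.97 and did not pass (adjusted p = 0.221 and 0.146). In that fit 19 genes passed for Fos and 18 for Egr1.

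**Figure D4:**
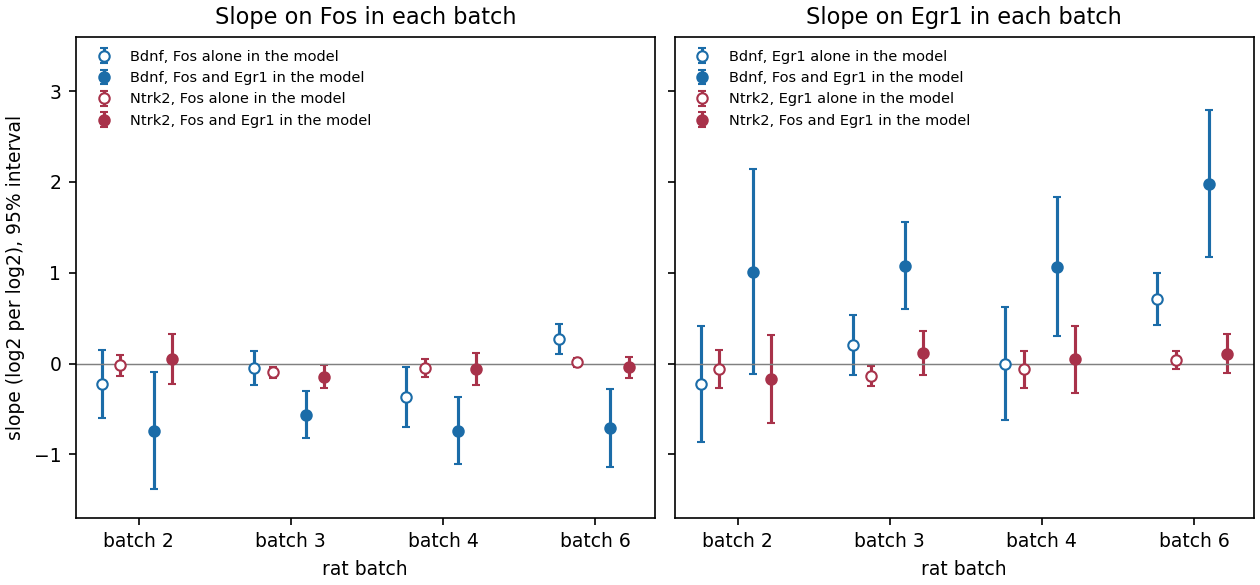
Slopes of Bdnf (blue) and Ntrk2 (red) on Fos (left) and Egr1 (right) in each batch, in log2 units per log2 unit, with 95% intervals. Open circles are from fits with a single activity gene and filled circles from fits with both. The filled Bdnf points lie below 0 on Fos and above 0 on Egr1 in all 4 batches, and the Ntrk2 points lie between -0.17 and 0.12, with intervals below 0 only in batch 3 (both slopes on Fos and the open circle on Egr1).

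Some single rats illustrate these slopes, and others do not. The rat of batch 4 with the fewest Bdnf reads (498 normalized reads, a male) held 2800 normalized Fos reads and 11314 of Egr1. The rat of that batch with the most (1647, a female) held 2452 of Fos and 16519 of Egr1. In batch 2, the rat with the most Bdnf (1803) held 768 normalized Fos reads, the fewest of the batch, and 9373 of Egr1. With batch and Fos removed its Egr1 residual was -0.0019, so it does not illustrate the slope on Egr1. With batch and Egr1 removed its Fos residual was only -0.163, beside a Bdnf residual of 0.764. Within batches, 8 pairs among 14 rats differed by at least 1 log2 unit in Fos and by at most 0.1 in Egr1, limits chosen after seeing the data. Batch 3 gave 3 of these pairs and batch 4 gave 5, while batches 2 and 6 gave 0. Bdnf was lower in the rat with more Fos in 6 of the 8 pairs, with a median difference of -0.69. Ntrk2 was lower in 5 of the 8, with a median of -0.07. 1 rat of batch 3 was in 2 of the pairs, as was the batch 4 male above, whose 2 pairs had Bdnf differences of -1.34 and -1.32, and no test was made.

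Slopes did not differ by sex past the threshold. Males minus females, the slope of Bdnf differed by -0.10 ± 0.12 on Fos and by -0.13 ± 0.20 on Egr1, and that of Ntrk2 by 0.02 ± 0.04 and 0.02 ± 0.06 (limma adjusted p = 0.988 to 0.996). In these tests 0% of genes passed, although 755 genes for Fos and 747 for Egr1 had an unadjusted p under 0.05.

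Depth moved with Bdnf by rank, and its relation to Ntrk2 did not pass. Bdnf and log2 depth, with batch means removed, had r = 0.211 (adjusted permutation p = 0.101 over 4 genes) and rho = 0.305 (adjusted permutation p = 0.0217), and without the 2 rats farthest from the median depth r was 0.247. Without the same 2 rats rho was 0.315. Within batches r was 0.231, 0.382, -0.0109 and 0.436 in batches 2, 3, 4 and 6, and rho was 0.589, 0.415, 0.084 and 0.465. For Ntrk2 r was 0.0141 (adjusted permutation p = 0.904) and rho 0.106. With depth as a covariate, the slopes of Bdnf in the fit with Fos and Egr1 together were -0.61 and 1.40 (limma adjusted p = 2.7e-05 and 8.91e-08). The first principal component within batches accounted for 0.00285% of the variance of Bdnf and 8.08% of that of Ntrk2.

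The genes whose levels moved most like Bdnf were other than Fos and Egr1. Among 14802 genes with a mean level of at least 3, with sex and batch removed over 79 rats, 39 had r of at least 0.7 with Bdnf and 20 with Ntrk2. The closest to Bdnf were ENSRNOG00000014900 (r = 0.875, and 0.641 to 0.958 within batches) and ENSRNOG00000000521 (r = 0.849, 0.684 to 0.960). The most opposite were ENSRNOG00000026770 (r = -0.711) and ENSRNOG00000048237 (r = -0.667). Egr1 ranked 713 and Fos 4344 in likeness to Bdnf. The closest to Ntrk2 were ENSRNOG00000007646 (r = 0.807, 0.720 to 0.862 within batches) and ENSRNOG00000030954 (r = 0.774, 0.653 to 0.844), and the most opposite ENSRNOG00000032729 (r = -0.70) and ENSRNOG00000011905 (r = -0.668). Egr1 ranked 10185 and Fos 11714 in likeness to Ntrk2. These correlations are over rats that share the same normalization, are given as a description, and carry no p.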

How the data were processed

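RNA-Seq values of the OFC were taken from 80 HS rats. Per the labels and the study's methods, the authors used cutadapt for trimming, RSEM for estimated counts per gene on the Ensembl transcriptome and DESeq2 for upper quartile scaling. They deposited log2 of the scaled count plus 1. Tool versions are not given in the sources used here. Of 88 labelled samples, 8 were marked as removed, have no column and were not analysed here.

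The members and gene lists were chosen with earlier results of these data known. The worth of 1 read in each library was found by Poisson likelihood (at least 99.7% of low values were whole), a step tested on simulated data. Tests used limma 3.58.1 (R 4.3.3, mean trend, threshold 0.05) on the 79 libraries of batches 2, 3, 4 and 6, with Benjamini-Hochberg adjustment over all genes. Correlations used 100000 two-sided permutations within batch. Contrasts of batch pairs were added after seeing the data. Beyond Bdnf, Ntrk2, Fos and Egr1, the 2 genes of highest and the 2 of lowest correlation with each member were named by identifier. Lists of cell type markers and BDNF pathway genes were not applied, since symbols were not paired with the identifiers. RefSeq promoters were matched by symbol for Bdnf. Rat, tissue and library differences cannot be told apart.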

Additional observations from a re-analysis of the deposited data

Results flagged for a closer look

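The lowest Bdnf level among the 10 males of batch 3 was 8.86, and the nearest of the others was 9.65, a gap of 0.512 of the range of that group. The lowest Fos level among the 8 males of batch 6 was 5.83, and the nearest was 8.88, a gap of 0.554 of the range. Only groups of sex and batch with 4 to 10 rats were examined (the batch 2 females, the batch 3 males and both sexes of batch 6), which gives 16 over the 4 genes, and chance gives such a gap in about 1 in 20 groups.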

How the results depend on the processing

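The alternatives changed the pseudocount, the filter, the scaling, the weights, the covariates or the libraries. No paired analysis was possible because each rat gave 1 library and replicate numbers were given in accession order. The cause of the changes below was not tested.

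With 20 principal components, the SD of Bdnf among rats was 0.29, the range of batch means 0.26 for Bdnf and 0.11 for Ntrk2, and the Egr1 slope of Bdnf 0.23, and with both genes in the model its slopes were -0.39 on Fos and 0.97 on Egr1, none past the threshold. The range of batch means of Bdnf was 0.21 without batch 6 and 0.57 in females alone, and that of Ntrk2 0.12 without batch 4, 0.16 in females alone, 0.16 with the column stretch as a term and 0.12 in batches 4 and 6 of the last stretch, none past the threshold.

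The correlation of Bdnf with Egr1 was -0.228, 0.331 and 0.062 in batches 2, 3 and 4 alone, 0.244 in males alone and 0.155 without batch 6, and did not pass. That of Ntrk2 with Fos passed without batch 6 (-0.382), in batch 3 alone (-0.582, adjusted over 20 relations) and without the 2 rats farthest in Fos (-0.267, adjusted over 2 relations in place of 5). The correlations without batch 6 were added after seeing the data. The Egr1 slope of Bdnf was -0.20, 0.17, -0.0276 and 0.73 in batches 2, 3, 4 and 6 alone, 0.0849 without batch 6, 0.27 in males and 0.49 in females, and none of these passed. The Fos slope of Bdnf turned to -0.62 with Egr1 as a further covariate.

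With both genes in the model, the Fos slope of Bdnf was -0.74, -0.57, -0.74 and -0.71 in batches 2, 3, 4 and 6 alone and -0.51 in females, and its Egr1 slope 1.01, 1.08 and 1.07 in batches 2, 3 and 4 alone, without passing. Both slopes kept their sign in all 21 alternatives, and passed in 15 of them on Fos and 17 on Egr1. The difference of Bdnf slopes between batches passed with array weights (range 0.76 on Fos and 1.13 on Egr1) and, on Fos, without the 2 rats lowest in Fos (0.93). Sex differences of both genes passed in 0 of 19 alternatives, with limma adjusted p-values of at least 0.621.

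The number of genes past the threshold ranged over the alternatives from 1 to 11557 for batch (11078 as reported), 9 to 36 for sex (20), 0 to 10 for sex by batch (0), 26 to 672 for the Fos slope (253) and 20 to 2977 for the Egr1 slope (452). It ranged from 0 to 835 (450) and 0 to 918 (680) for the Fos and Egr1 slopes fitted together, 0 to 696 (151) and 0 to 611 (1.09% of genes) for their differences between batches, and 0 to 1 (0) and 0 to 2 (0) between sexes.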

Other observations

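The single rat of batch 5, a female left out of the tests, held 1256 normalized reads of Bdnf, 12877 of Ntrk2, 2687 of Fos and 14602 of Egr1, all within the ranges of the other 79 rats.

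Batch means accounted for 21.4% of the variance of Bdnf among rats and 24.9% of that of Ntrk2. In batch 3 the mean level of Bdnf was 10.20 ± 0.38 (SD, n = 7), 9.92 ± 0.50 (n = 12) and 10.22 ± 0.19 (n = 3) in the first, the second and the third column stretch, and these were not tested against each other.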
